A study of Mus musculus with 4 samples.

Results

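The genes of the cytosolic ribosomal proteins were described in β-cells of NOD mice, a strain that develops autoimmune type 1 diabetes. A feature (a probe set of the array) was taken where its annotation gave a single gene symbol that begins with Rpl or Rps and a number, or that is Rplp0, Rplp1, Rplp2 or Rpsa. S6 kinases and symbols of pseudogenes ending in -ps were left out, and a gene with several features was represented by the one with the highest mean signal. This gave 46 genes, from 53 features, of the 30176 genes with a feature of their own on the array. Of the 46, 26 carry the symbol of a large-subunit protein and 18 that of a small-subunit protein, and the other 2, Rps19bp1 and Rps23rg1, name no ribosomal protein. Rplp1 and Rplp2 were not among them. A further 42 ribosomal protein genes of the mouse were found only in features annotated with several symbols, so the 46 are a part of the family.

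RNA of purified β-cells was hybridised to 4 Clariom D mouse arrays, which measure signal intensity per feature. At 11 weeks of age (11w), 1 array held a pool of 9 Tyk2-/- mice and 1 a pool of 8 Tyk2+/+ mice. At 6 weeks (6w), 1 array held a pool of 6 Tyk2-/- mice and 1 a pool of 6 Tyk2+/+ mice. All mice were female and of the NOD strain, and the labels give no treatment. Tyk2-/- mice lack the kinase TYK2 in every cell, through a disrupted allele made in the 129/Sv strain and crossed onto NOD by way of C57BL/6J, so they can carry a segment of the donor strains around Tyk2. Cells had been sorted as live, CD45-negative islet cells positive for FluoZin-3-AM, a zinc dye, and for TMRE, a dye of mitochondrial membrane potential. The study asked how β-cell gene expression differs with age and with loss of Tyk2. With 1 array a group, no comparison has a replicate check, the number of arrays limits the precision, and no p-value can be given.

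A ribosome has a small subunit, which holds the mRNA and reads its codons, and a large subunit, which joins the amino acids and releases the chain through a tunnel. The mRNAs of the ribosomal proteins are among the most abundant of a cell. In mammals most of these mRNAs begin with a cytosine and a run of pyrimidines, the terminal oligopyrimidine or TOP motif, through which mTORC1 and LARP1 set their translation together. In β-cells, which make large amounts of proinsulin, glucose and insulin act on translation through this pathway. Ribosomal protein genes have many processed pseudogenes and retrocopies in mammalian genomes, with sequences close to those of the parent mRNA.

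The start sites of 38 of the 46 genes were found in RefSeq promoters of the GRCm38.p6 build. The 30 bases around them were searched for the TOP motif on the strand that reads as the mRNA. They are shown for genes that the results below turn on, 15 bases before the annotated start and 15 from it, 5′ to 3′, with the unbroken run of C and T that holds the start base in capitals.
Rpl35 (chr2:39005117-39005146, minus strand): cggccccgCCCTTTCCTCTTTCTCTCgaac
Rpl7a (chr2:26910792-26910821, plus strand): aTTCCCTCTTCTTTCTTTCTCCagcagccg
Rpl38 (chr11:114668565-114668594, plus strand): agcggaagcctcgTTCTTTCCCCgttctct
Rpl32l (chr10:20208424-20208453, plus strand): aaataaaatgaccagCTTCTTCCTTggtgc
Rpl27 (chr11:101442230-101442259, plus strand): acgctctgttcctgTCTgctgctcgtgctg
Rps26 (chr10:128626492-128626521, minus strand): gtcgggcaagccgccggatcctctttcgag
Rps7 (chr12:28635939-28635968, minus strand): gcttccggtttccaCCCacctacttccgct
Rps4x (chrX:102189377-102189406, minus strand): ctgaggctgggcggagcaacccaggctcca

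The run that holds the start was 18 bases long for Rpl35, 21 for Rpl7a, 10 each for Rpl38 and Rpl32l and 3 each for Rpl27 and Rps7, and the start base of Rps26 and Rps4x was not C or T. A run of at least 6 C or T over the start was found for 10 of the 38 genes (26.3%), against 8.48% of 27025 genes in the RefSeq table. A C followed by 4 bases that are each C or T, counted from the start base itself, was found for 5 of 38 (13.2%), against 3.01% of all genes. Those 5 were Rpl32l, Rpl35, Rpl38, Rps10 and Rps18. The same letters anywhere in the 30 bases were found for 25 of 38 (65.8%), against 40.3% of all genes. A match is a description of letters at an annotated start, which can lie some bases from the start used in β-cells.

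The signals of whole arrays set the frame for these genes. In Tyk2-/- β-cells the median over all features was 17.5 at 11w and 16.2 at 6w, and in Tyk2+/+ β-cells 17.3 at 11w and 15.7 at 6w. The highest signal was 970447 at 11w and 999966 at 6w in Tyk2-/- β-cells, and 923703 at 11w and 999966 at 6w in Tyk2+/+ β-cells. Between 86 and 97 features had exactly the highest signal of their array. Among 12 β-cell markers measured, Iapp (islet amyloid polypeptide) was at that maximum on all arrays, and the median of the 12 was 67.3 at 11w and 53.4 at 6w in Tyk2-/- β-cells, and 47.2 at 11w and 349 at 6w in Tyk2+/+ β-cells. The α-, δ- and PP-cell hormones Gcg, Sst and Ppy were at the maximum on all arrays too, so markers of other islet cells were present beside those of β-cells. The summed signal of 12 acinar markers was 376 at 11w and 243 at 6w in Tyk2-/- β-cells, and 250 at 11w and 281 at 6w in Tyk2+/+ β-cells. That of 19 leukocyte markers was 315 at 11w and 286 at 6w in Tyk2-/-, and 319 and 276 in Tyk2+/+ β-cells. Both 11w sums were thus above both 6w sums. The median leukocyte marker gave 15.9 at 11w and 14.3 at 6w in Tyk2-/-, and 15.2 and 14.0 in Tyk2+/+ β-cells. On all 4 arrays this was dimmer than the array median, so these are sums of mostly low signals. No marker was listed at 0, but the lowest signal of any feature was 4.33, in 6w Tyk2-/- β-cells. The part of these differences in the ribosomal protein values was not tested. In a pool of sorted cells, fewer cells of a type and less RNA per cell cannot be told apart.

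The 46 genes lay high on the arrays. Of the 46, 43 were above the median of all features on each of the 4 arrays, and their median was 1011 at 11w and 1054 at 6w in Tyk2-/- β-cells, and 719 at 11w and 1178 at 6w in Tyk2+/+ β-cells. A signal depends on the probes of its feature, so the order of genes by signal is not an order of mRNA amounts. The 3 genes below the median were tissue-restricted paralogs. Rpl3l, the striated-muscle paralog of Rpl3, gave between 10.7 and 12.9 over the arrays. Rpl10l, a testis paralog of Rpl10, gave between 11.0 and 14.0, and Rpl39l, a paralog of Rpl39 that is high in testis, gave between 11.7 and 14.2. Each of these was under the array median on every array. Above the median, Rps19, whose human gene is mutated in Diamond-Blackfan anaemia, was the dimmest gene of a ribosomal protein proper, at 32.9 at 11w and 34.2 at 6w in Tyk2-/- β-cells, and 32.1 at 11w and 34.2 at 6w in Tyk2+/+ β-cells.

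**Figure D1:**
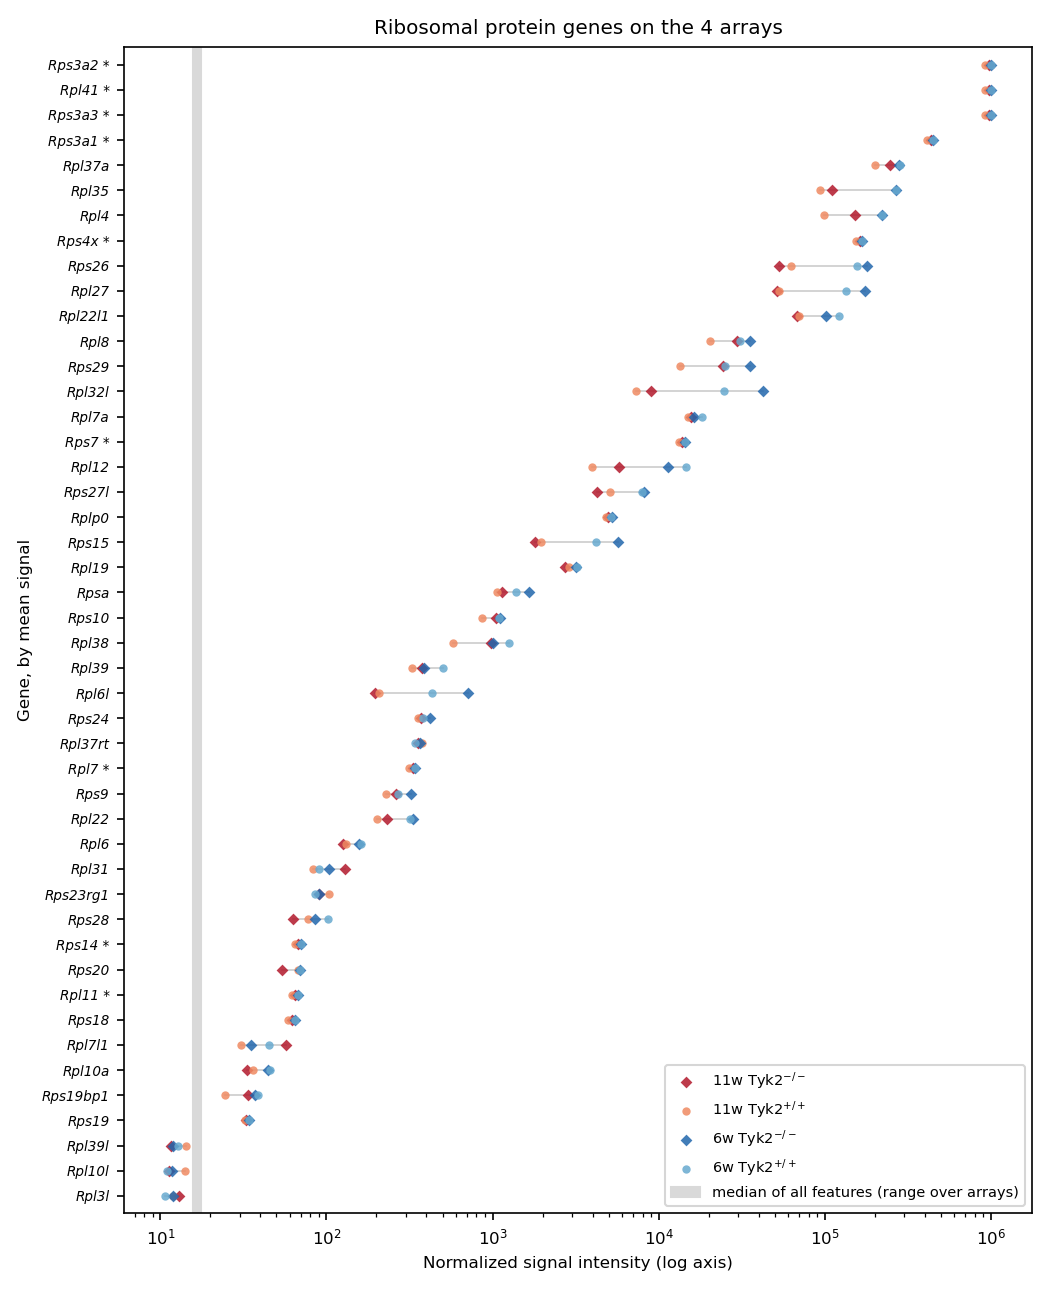
Normalized signal intensity (log axis) of the 46 genes, 1 row a gene, ordered by mean signal, with 1 point for each array and a line from the lowest to the highest. The grey band is the range of the array medians (15.7 to 17.5), 43 genes lie to its right, and the 9 genes with an asterisk have points at the same share of the array maximum on all arrays.

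Some of these genes could show no change at all. Rpl41, a very short protein of the large subunit, and the features annotated Rps3a2 and Rps3a3, which RefSeq lists as pseudogenes of the small-subunit gene Rps3a1, were at the array maximum on all 4 arrays. Their log2 differences were therefore those of the maxima, -0.04 for 11w against 6w in Tyk2-/-, -0.11 for 11w against 6w in Tyk2+/+, 0.07 for Tyk2-/- against Tyk2+/+ at 11w and 0 at 6w. A signal at the maximum is a lower bound, and no fold change is given for these genes.

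A second group had the same ratios without being at the maximum. Rps3a1 gave 436375 at 11w and 449649 at 6w in Tyk2-/- β-cells, and 415356 at 11w and 449649 at 6w in Tyk2+/+ β-cells, which was 45.0% of the array maximum each time. Rps4x, the X-linked small-subunit protein, gave 163133 at 11w, against 168095 at 6w, in Tyk2-/- mice and 155275 at 11w, against 168095 at 6w, in Tyk2+/+ mice, or 16.8% of the maximum on each array. Rps7, a small-subunit protein that also binds MDM2, gave 13906 at 11w and 14329 at 6w in Tyk2-/- β-cells, and 13236 at 11w and 14329 at 6w in Tyk2+/+ β-cells, or 1.43% of each maximum. These genes thus had the signature of a feature at the maximum at signals well under it.

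The same was found for dim genes. The large-subunit gene Rpl7 gave 330 at 11w and 340 at 6w in Tyk2-/- β-cells, and 314 at 11w and 340 at 6w in Tyk2+/+ β-cells. Rpl11, which binds MDM2 together with 5S rRNA when ribosome assembly is disturbed, gave 65.0 at 11w, against 66.99 at 6w, in Tyk2-/- mice and 61.9 at 11w, against 66.99 at 6w, in Tyk2+/+ mice. Rps14, a protein of the small-subunit platform, gave 67.8 at 11w and 69.9 at 6w in Tyk2-/- β-cells, and 64.6 at 11w and 69.9 at 6w in Tyk2+/+ β-cells. In all, 9 of the 46 genes (19.6%) kept a fixed share of the array maximum on all 4 arrays (to within 0.0001 on the log2 scale), against 99 of all 30176 genes (0.328%). Of those 99, 40 carried the symbol of a ribosomal protein gene or of a ribosomal protein pseudogene. A further 7 of the 46, Rplp0, Rpl38, Rpl39, Rps24, Rpl37rt, Rps20 and Rps19, had the ratio of the maxima in 1 to 3 of the 4 comparisons. The cause of the fixed share was not tested, and these values are not evidence that the genes did not change. The age difference was other than the ratio of the maxima for 34 of the 46 genes in Tyk2-/- and for 35 in Tyk2+/+ β-cells.

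**Figure D2:**
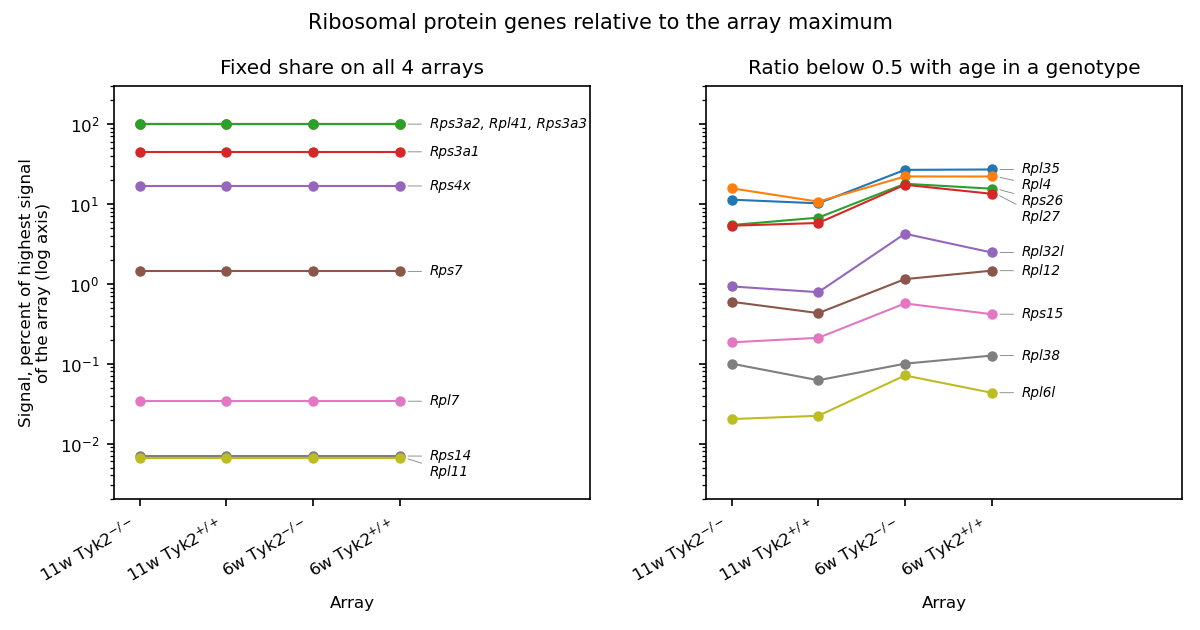
Signal as a percent of the highest signal of the same array (log axis) on the 4 arrays, 1 line a gene. Left, the 9 genes with a fixed share on all arrays give flat lines from 100% down to under 0.01%; right, the 9 genes with a ratio below 0.5 with age in at least 1 genotype have lower shares on both 11w arrays than on both 6w arrays, except Rpl38, whose share was equal on the 11w and 6w Tyk2-/- arrays.

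With age, most ribosomal protein genes had lower signals in both genotypes, and 1 of them was called as different. In Tyk2-/- β-cells the 11w signal was below the 6w signal for 43 of 46 genes (93.5%), against 40.4% of all genes, and the median log2 difference was -0.11, against 0.05 for all genes. In Tyk2+/+ β-cells it was below for 41 of 46 (89.1%), against 38.4% of all genes, with a median of -0.29, against 0.07. The same 39 genes were lower in both genotypes and had both 11w signals below both 6w signals (84.8%, against 15.7% of all genes), and none had both above (32.3% of all genes). Without the 9 genes of fixed share, 30 of 37 (81.1%) had both 11w signals below and the medians were -0.25 in Tyk2-/- and -0.42 in Tyk2+/+.

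Bright genes as a whole had lower 11w signals too. Of the 1044 genes with a mean signal above 1000, 76.8% had both 11w signals below both 6w signals, as had 23 of 23 ribosomal protein genes of that brightness. These 23 include 6 with a fixed share of the maximum (26.1%), whose direction is that of the maxima, against 8.52% of the 1044. The median log2 differences of these 23 were -0.25 in Tyk2-/- and -0.49 in Tyk2+/+, against -0.58 and -0.63 for all 1044 genes. Without genes of fixed share, 17 of 17 ribosomal protein genes had both 11w signals below, against 74.7% of 955 bright genes. The medians were then -0.54 in Tyk2-/- and -0.80 in Tyk2+/+ for the 17, against -0.68 and -0.70 for the 955, so which medians were nearer 0 differed between the genotypes. Of the 23 ribosomal protein genes with a mean signal of 1000 or less, 16 (69.6%) had both 11w signals below. That share was 13.5% for the 29132 genes of that brightness. Of these dimmer 23, 3 had a fixed share of the maximum. The medians of the dimmer 23 were -0.06 in Tyk2-/- and -0.12 in Tyk2+/+, against 0.06 and 0.08 for the 29132. After quantile normalization, which gives all arrays the same spread of signals, the medians of the 46 were 0.032 in Tyk2-/- and -0.0041 in Tyk2+/+, and 12 of 46 (26.1%) had both 11w signals below both 6w signals, against 23.9% of all genes. The shift of the group with age is therefore seen on the deposited scale and not after that step. With each array set on its own maximum, 20 of 46 (43.5%) had both 11w values below, against 10.5% of all genes. At that setting the 9 genes of fixed share are equal on all arrays, so they cannot be counted as below. Rplp0, Rpl38, Rpl39 and Rps24 have an 11w value equal to a 6w value there too.

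**Figure D3:**
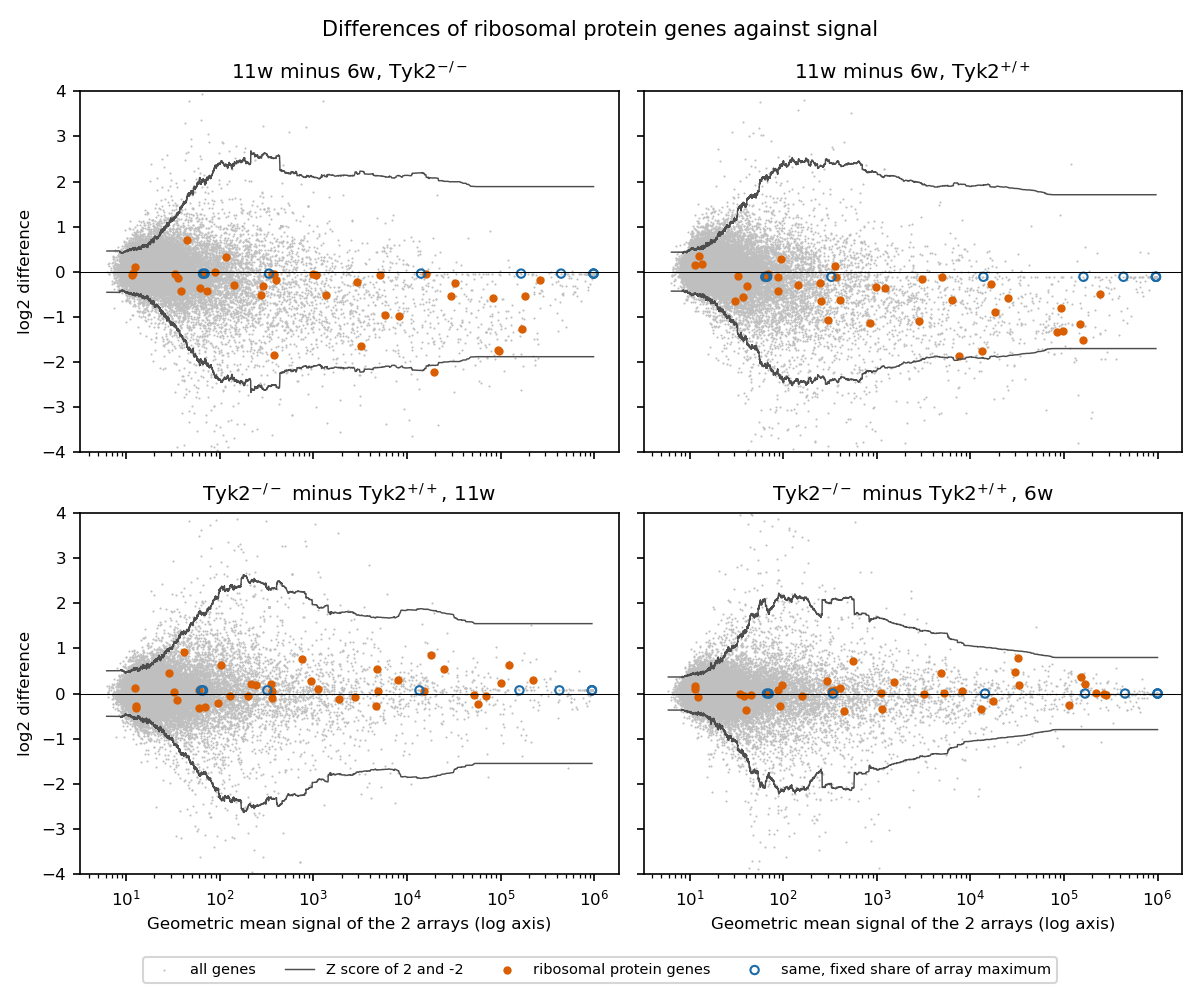
Log2 difference against the geometric mean signal (log axis) for all genes (grey) and for ribosomal protein genes (orange, or open blue circles for the 9 with a fixed share of the maximum), 1 panel for each comparison, with lines at Z scores of 2 and -2. In both age panels (top) the bright ribosomal protein genes lie mostly below 0 and inside the lines with 1 exception in Tyk2-/-, and in both genotype panels (bottom) all lie inside the lines; grey points beyond 4 or -4 are not drawn.

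A gene was called when its Z score passed 2 and its ratio 1.5 (higher), or its Z score was under -2 and its ratio under 0.66 (lower), where the Z score sets a log2 difference against the spread (SD) of the differences of the 500 features on each side of it in signal, or as many of the nearest at the ends of the range. In Tyk2-/- β-cells 1 of the 46 was called with age, as lower, against 2.96% of all genes called in either direction and 1.35% called lower. In Tyk2+/+ β-cells 0 of 46 were called, against 3.59% of all genes in either direction and 1.45% called lower. Bright genes were called lower more often. Of the 1044 with a mean signal above 1000, 57 were called lower in Tyk2-/- and 88 in Tyk2+/+. Of the 23 ribosomal protein genes of that brightness, 1 and 0 were. The called gene was Rpl32l, a copy, on chromosome 10, of the gene of the large-subunit protein Rpl32. Its signal was 9013 at 11w and 42438 at 6w in Tyk2-/- β-cells, and 7270 at 11w and 24732 at 6w in Tyk2+/+ β-cells. Both 11w signals were lower than both 6w signals. The log2 difference of the call in Tyk2-/- was -2.24 (Z score -2.15), and that of -1.77 in Tyk2+/+ had a Z score of -1.85. The call was lost after quantile normalization, and whether the signal came from Rpl32l or from Rpl32 and its other copies was not tested.

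By the ratio alone, 6 of 46 genes had less than 0.5 of the 6w signal at 11w in Tyk2-/- (background 3.69% of all genes) and 9 of 46 in Tyk2+/+ (background 4.31%), and those 6 were among the 9. For Rpl35, Rpl27 and Rpl12 among the 9, the feature used was on another chromosome than the gene. A dimmer feature on the chromosome of the gene had ratios of 0.70 in Tyk2-/- and 0.66 in Tyk2+/+ for Rpl35. For Rpl27 they were 0.65 and 0.70. Among genes with a mean signal above 1000, such a ratio was found for 5 of 23 ribosomal protein genes (21.7%) in Tyk2-/- and 7 of 23 (30.4%) in Tyk2+/+, against 34.3% and 35.0% of the 1044 genes of that brightness. Among large-subunit genes, Rpl35, whose protein sits at the exit of the peptide tunnel, gave 109939 at 11w and 267428 at 6w in Tyk2-/- β-cells, and 94197 at 11w and 270427 at 6w in Tyk2+/+ β-cells. The pairs did not overlap, and the log2 differences were -1.28 (Z score -1.36) in Tyk2-/- and -1.52 (Z score -1.78) in Tyk2+/+. Rpl27, another large-subunit protein, gave 51923 at 11w, against 174016 at 6w, in Tyk2-/- mice and 53399 at 11w, against 134247 at 6w, in Tyk2+/+ mice. Its log2 differences were -1.74 in Tyk2-/- and -1.33 in Tyk2+/+.

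Rpl4, whose protein lines part of the exit tunnel, gave 152496 at 11w and 221115 at 6w in Tyk2-/- β-cells, and 98758 at 11w and 220906 at 6w in Tyk2+/+ β-cells. Its 6w signals were nearly equal, and the log2 differences with age were -0.54 in Tyk2-/- and -1.16 in Tyk2+/+. Rpl12, at the base of the stalk that recruits elongation factors, gave 5788 at 11w, against 11466 at 6w, in Tyk2-/- mice and 3979 at 11w, against 14622 at 6w, in Tyk2+/+ mice. It had a log2 difference of -0.99 in Tyk2-/- and -1.88 in Tyk2+/+, where its Z score of -1.94 was close to the limit. Rpl37a gave 247752 at 11w and 279702 at 6w in Tyk2-/- β-cells, and 202110 at 11w and 284559 at 6w in Tyk2+/+ β-cells, with log2 differences of -0.17 in Tyk2-/- and -0.49 in Tyk2+/+. The age differences of these large-subunit genes were of unlike size.

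Rpl38, which in mice is needed for the translation of a set of Hox mRNAs and for the pattern of the axial skeleton, had a low signal on a single array. It gave 973 at 11w and 1002 at 6w in Tyk2-/- β-cells, and 574 at 11w and 1265 at 6w in Tyk2+/+ β-cells. Its log2 difference with age was -1.14 in Tyk2+/+ (Z score -1.03), and in Tyk2-/- it was the ratio of the array maxima. Rplp0, the scaffold of the acidic stalk, gave 4973 at 11w, against 5222 at 6w, in Tyk2-/- mice and 4791 at 11w, against 5186 at 6w, in Tyk2+/+ mice. Its log2 differences were -0.07 in Tyk2-/- and -0.11 in Tyk2+/+, where the difference was the ratio of the array maxima.

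All 18 small-subunit genes had both 11w signals below both 6w signals, 6 of them with a fixed share of the maximum. So had 20 of the 26 large-subunit genes, 3 of them with a fixed share, against 15.7% of all genes. The other large-subunit genes were Rpl31 and the paralogs or copies Rpl3l, Rpl10l, Rpl39l, Rpl37rt and Rpl7l1, so most of that contrast lies in paralogs. The medians were -0.13 in Tyk2-/- and -0.12 in Tyk2+/+ for the small subunit and -0.12 and -0.41 for the large subunit. Without the genes of fixed share they were -0.40 in Tyk2-/- and -0.35 in Tyk2+/+ for 12 small-subunit genes and -0.22 and -0.57 for 23 large-subunit genes. Rps26, which lies by the channel where the mRNA leaves the small subunit, gave 52908 at 11w and 179171 at 6w in Tyk2-/- β-cells, and 62364 at 11w and 155522 at 6w in Tyk2+/+ β-cells. The log2 differences were -1.76 (Z score -1.86) in Tyk2-/- and -1.32 (Z score -1.54) in Tyk2+/+. Rps15, in the head of the small subunit, gave 1800 at 11w, against 5689 at 6w, in Tyk2-/- mice and 1951 at 11w, against 4174 at 6w, in Tyk2+/+ mice, with log2 differences of -1.66 in Tyk2-/- and -1.10 in Tyk2+/+. Rpsa, a small-subunit protein also known as the laminin receptor, gave 1148 at 11w and 1652 at 6w in Tyk2-/- β-cells, and 1070 at 11w and 1378 at 6w in Tyk2+/+ β-cells.

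The paralogs and copies gave mixed differences. Of 11, 6 had both 11w signals below both 6w signals, against 32 of 33 genes of the ribosomal proteins proper and 15.7% of all genes. Of the 33, 7 had a fixed share of the maximum. The exception among the 33 was Rpl31, a large-subunit protein, whose only feature was on another chromosome than the gene. Of the 6 paralogs and copies, 2 (Rps3a2 and Rps3a3) were at the array maximum, and of the other 5, 3 (Rpl3l, Rpl10l and Rpl39l) were under the array medians. Rpl31 gave 129 at 11w and 104 at 6w in Tyk2-/- β-cells, and 83.4 at 11w and 90.7 at 6w in Tyk2+/+ β-cells, so that its 11w and 6w signals overlapped. Rpl22l1, the paralog that can take the place of Rpl22, gave 67809 at 11w and 102316 at 6w in Tyk2-/- β-cells, and 70382 at 11w and 122570 at 6w in Tyk2+/+ β-cells. Its log2 differences were -0.59 in Tyk2-/- and -0.80 in Tyk2+/+, and those of its parent Rpl22 were -0.51 and -0.66. Rpl22 gave 232 at 11w, against 331 at 6w, in Tyk2-/- mice and 201 at 11w, against 317 at 6w, in Tyk2+/+ mice. Rps27l, a p53-induced paralog of Rps27, gave 4230 at 11w and 8185 at 6w in Tyk2-/- β-cells, and 5113 at 11w and 7919 at 6w in Tyk2+/+ β-cells. In these genes the 11w and 6w signals did not overlap.

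Rpl6l, listed by RefSeq as a pseudogene, gave 197 at 11w and 713 at 6w in Tyk2-/- β-cells, and 206 at 11w and 434 at 6w in Tyk2+/+ β-cells. Its log2 differences were -1.86 in Tyk2-/- and -1.07 in Tyk2+/+. Its parent Rpl6 gave 126 at 11w, against 156 at 6w, in Tyk2-/- mice and 131 at 11w, against 161 at 6w, in Tyk2+/+ mice, with a log2 difference of -0.30 in each genotype. Rpl37rt, a retrocopy of Rpl37, gave 354 at 11w and 365 at 6w in Tyk2-/- β-cells, and 377 at 11w and 343 at 6w in Tyk2+/+ β-cells, and its 11w and 6w signals overlapped. Rpl7l1, a nucleolar relative of Rpl7 in large-subunit assembly, gave 57.3 at 11w, against 35.3 at 6w, in Tyk2-/- mice and 30.4 at 11w, against 45.2 at 6w, in Tyk2+/+ mice. Its age differences had opposite signs in the genotypes. Rpl7 itself had a fixed share of the maximum and Rpl37 was not among the 46 genes, so these were not compared with their parents.

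The 2 genes whose symbols name no ribosomal protein had no call either. Rps19bp1, an activator of SIRT1 that binds RPS19, gave 33.7 at 11w and 37.3 at 6w in Tyk2-/- β-cells, and 24.6 at 11w and 38.8 at 6w in Tyk2+/+ β-cells. Rps23rg1, a gene retroposed from Rps23 in the mouse, gave 89.6 at 11w, against 89.9 at 6w, in Tyk2-/- mice and 103 at 11w, against 85.3 at 6w, in Tyk2+/+ mice. Of the remaining genes, Rpl8, Rps29, Rpl7a, Rpl19, Rps10, Rpl39, Rps24, Rps9, Rps28, Rps20, Rps18 and Rpl10a had both 11w signals below both 6w signals. Their log2 differences went from -0.06 (Rps18) to -0.53 (Rps29) in Tyk2-/-, where that of Rpl39 was the ratio of the maxima. In Tyk2+/+ they went from -0.05 (Rps20) to -0.90 (Rps29), and that of Rps24 was the ratio of the maxima. Rps29 gave 24522 at 11w and 35435 at 6w in Tyk2-/- β-cells, and 13515 at 11w and 25268 at 6w in Tyk2+/+ β-cells. The 10 genes with a run of pyrimidines over the annotated start had median age differences of -0.07 in Tyk2-/- and -0.26 in Tyk2+/+, and the 28 without had -0.16 and -0.35, a difference that was not tested. Of the 28, 5 had a fixed share of the maximum, and 0 of the 10 had.

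For some genes the feature with the highest signal may not lie in the gene. The identifier of a feature carries a chromosome number, which was that of the annotated gene for 98.8% of 22754 features with a RefSeq match. The feature used here was on another chromosome than the gene for 6 of 46 genes (13.0%), against 0.783% of 22363 genes. These were Rpl41 (feature on chromosome 14, gene on 10), Rpl35 (1 and 2), Rpl27 (18 and 11), Rpl7a (9 and 2), Rpl12 (10 and 2) and Rpl31 (7 and 1). For the first 4 of these a second, dimmer feature was on the chromosome of the gene.

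For Rpl35 and Rpl27 the own-chromosome feature had the smaller age difference. That of Rpl35 gave 5531 at 11w and 7908 at 6w in Tyk2-/- β-cells, and 5220 at 11w and 7898 at 6w in Tyk2+/+ β-cells. Its log2 differences were -0.52 in Tyk2-/- and -0.60 in Tyk2+/+, in place of -1.28 and -1.52. That of Rpl27 gave 552 at 11w, against 846 at 6w, in Tyk2-/- mice and 527 at 11w, against 757 at 6w, in Tyk2+/+ mice, with log2 differences of -0.62 and -0.52 in place of -1.74 and -1.33. That of Rpl41 lay well under the maximum, at 743 at 11w and 766 at 6w in Tyk2-/- β-cells, and 707 at 11w and 809 at 6w in Tyk2+/+ β-cells. That of Rpl7a gave 287 at 11w, against 353 at 6w, in Tyk2-/- mice and 269 at 11w, against 296 at 6w, in Tyk2+/+ mice. The direction with age was the same for both features of Rpl35, Rpl27 and Rpl7a. For Rpl41 none is read, since the bright feature was at the maximum and the other had the ratio of the maxima in Tyk2-/-.

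Rps26 was the reverse case, since its brightest feature was on its own chromosome 10. A second feature with its symbol, on chromosome 8, gave 1647 at 11w and 12551 at 6w in Tyk2-/- β-cells, and 3456 at 11w and 11160 at 6w in Tyk2+/+ β-cells. The log2 differences were -2.93 (Z score -2.75, past the limits of the call) in Tyk2-/- and -1.69 (Z score -1.79) in Tyk2+/+. The feature on chromosome 12 was under the median of every array, at 10.7 to 14.7. With own-chromosome features used wherever there was one, 39 of 46 genes still had both 11w signals below both 6w signals, against 15.7% of all genes. Of genes of ribosomal proteins proper whose feature used here was on their own chromosome, 27 of 27 had, 6 of them with a fixed share.

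**Figure D4:**
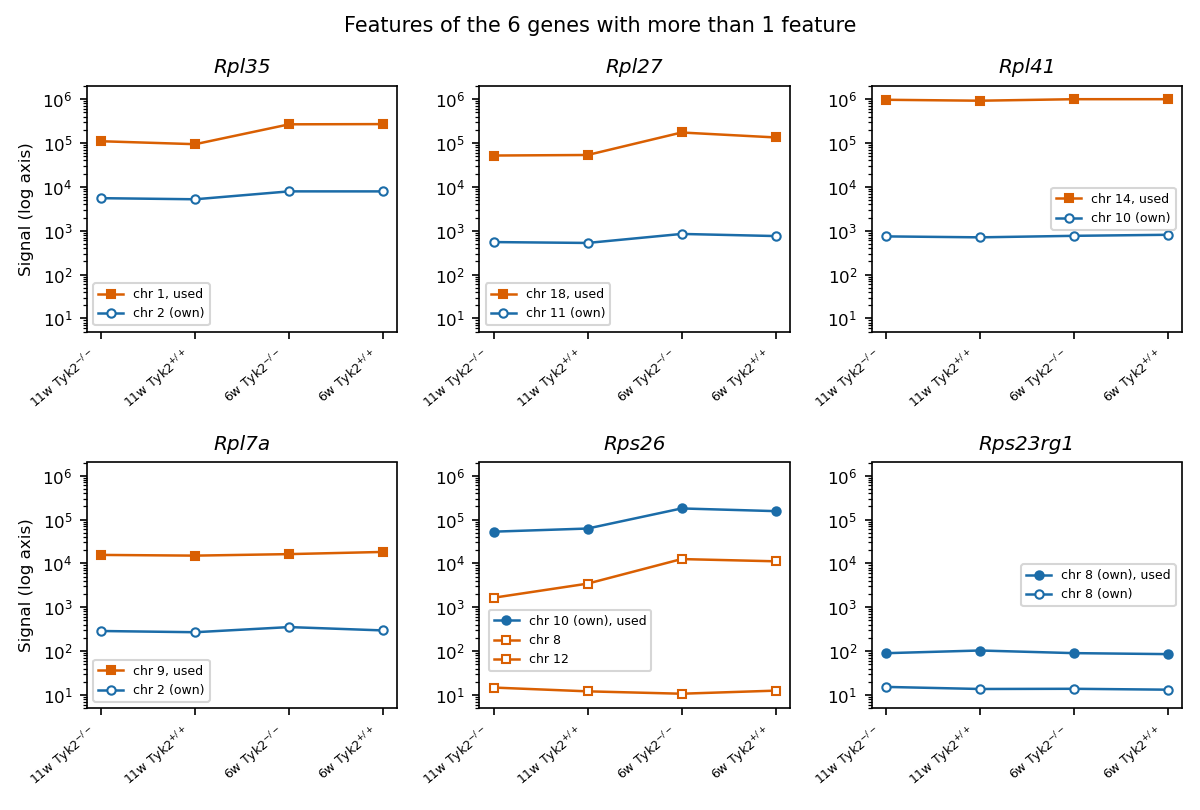
Signal (log axis) on the 4 arrays of every feature of the 6 genes that have more than 1, with the feature on the chromosome of the gene in blue circles, those on other chromosomes in orange squares, and the feature used here filled. For Rpl35 and Rpl27 the line of the bright feature climbs more steeply between the 11w and the 6w arrays than that of the own-chromosome feature, and Rpl41 is flat at the maximum on chromosome 14.

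Between the genotypes no ribosomal protein gene was called at either age. At 11w, 0 of 46 were called in Tyk2-/- against Tyk2+/+ β-cells (2.86% of all genes were), and at 6w 0 of 46 (2.36% of all genes). At 11w the signal was higher in Tyk2-/- β-cells for 31 of 46 genes, the 9 of fixed share among them, with a median log2 difference of 0.07, which is the ratio of the array maxima, against 0.01 for all genes. Differences reached 0.91 for Rpl7l1, 0.86 for Rps29, 0.76 for Rpl38, 0.63 for Rpl4 and 0.63 for Rpl31 on the log2 scale, and the lowest was -0.32 for Rpl10l. At 6w the median was 0, against 0.03 for all genes, with 11 of 46 genes exactly equal on both arrays (the 9 of fixed share, Rps20 and Rps19), 21 higher and 14 lower in Tyk2-/- β-cells. The largest difference there was 0.78 for Rpl32l and the lowest -0.38 for Rpl39. Each array enters 1 age and 1 genotype comparison, so the 4 comparisons share arrays.

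Features outside the rule that carry ribosomal protein symbols gave a like picture. Of 208 ribosomal protein pseudogenes with a symbol ending in -ps, 185 (88.9%) had both 11w signals below both 6w signals, against 15.7% of all genes. Their medians were -0.55 in Tyk2-/- and -0.41 in Tyk2+/+, and 5 were called lower in Tyk2-/- and 10 in Tyk2+/+ (1.35% and 1.45% of all genes). These pseudogenes were bright, with median signals between 8158 and 16449 over the arrays. Of the 1044 genes with a mean signal above 1000, 76.8% had both 11w signals below. Of the same 1044, 57 were called lower in Tyk2-/- and 88 in Tyk2+/+. The 208 pseudogenes include 31 with a fixed share of the maximum (14.9%). Of the 53 features with several symbols of which 1 was a ribosomal protein gene, 48 (90.6%) had both 11w signals below and 12 (22.6%) a fixed share, with medians of -0.22 and -0.19. Fau, which encodes a small-subunit protein fused to a ubiquitin-like protein, gave 628 at 11w and 1777 at 6w in Tyk2-/- β-cells, and 573 at 11w and 827 at 6w in Tyk2+/+ β-cells.

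The proteins of the mitochondrial ribosome are encoded in the nucleus and made by cytosolic ribosomes. Of 74 such genes, 23 (31.1%) had both 11w signals below both 6w signals, against 15.7% of all genes, and none kept a fixed share. Their median log2 differences were -0.07 in Tyk2-/- and -0.21 in Tyk2+/+. Their median signals, between 48.1 and 63.5 over the arrays, were far dimmer than those of the cytosolic genes, and the difference between the groups was not tested. With age in Tyk2-/- β-cells 2 of the 74 were called lower (1.35% of all genes were). Mrpl42 gave 56.4 at 11w and 2152 at 6w in Tyk2-/- β-cells, and 2469 at 11w and 4624 at 6w in Tyk2+/+ β-cells, so that its low value stood on the 11w Tyk2-/- array alone. Mrps18c gave 186 at 11w, against 3601 at 6w, in Tyk2-/- mice and 381 at 11w, against 1062 at 6w, in Tyk2+/+ mice. Between the genotypes at 11w, the call of Mrpl42 was lower in Tyk2-/-, while Mrpl43 was called higher, with 45.0 in Tyk2-/- and 18.5 in Tyk2+/+ β-cells. At 6w, the call of Mrps18c was higher in Tyk2-/-, while Mrpl50 was called lower, with 36.4 in Tyk2-/- and 216 in Tyk2+/+ β-cells. These genotype calls, 1 higher and 1 lower of the 74 at each age, stand beside 2.86% of all genes at 11w and 2.36% at 6w.

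Other genes of the translation apparatus had few calls, as had all genes. Of all genes, 2.96% were called with age in Tyk2-/-, 3.59% in Tyk2+/+, and 2.36% between the genotypes at 6w. Of 15 further TOP mRNAs, 8 are also among the initiation and elongation genes given here. Of the 15, 14 had both 11w signals below both 6w signals, against 15.7% of all genes. Their medians were -0.23 in Tyk2-/- and -0.43 in Tyk2+/+, and 0 were called with age. Eef1a1, the elongation factor that brings aminoacyl-tRNA to the ribosome, gave 120916 at 11w and 124594 at 6w in Tyk2-/- β-cells, and 115091 at 11w and 124594 at 6w in Tyk2+/+ β-cells, and it and Tpt1 kept a fixed share of the maximum. Npm1, a nucleolar chaperone of ribosome assembly, gave 49051 at 11w, against 54583 at 6w, in Tyk2-/- mice and 45255 at 11w, against 68128 at 6w, in Tyk2+/+ mice. Of 28 initiation factor genes, 17 (60.7%) had both 11w signals below, against 15.7% of all genes, with medians of -0.29 and -0.50. Eif3l, a subunit of the factor eIF3, was called lower with age in Tyk2+/+ (15.5 in 11w Tyk2+/+ against 28.7 in 6w Tyk2+/+ β-cells), and Eif3h, another subunit, was called lower with a signal of 17150 in Tyk2-/- β-cells at 6w, against 36157 in those of Tyk2+/+ mice.

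The genes that build ribosomes and the list with regulators of TOP mRNA translation had no calls with age. Of all genes, 2.96% were called with age in Tyk2-/- and 3.59% in Tyk2+/+. For lists this short, 0 calls is near those shares. The median log2 differences in Tyk2-/- and Tyk2+/+ were -0.06 and -0.05 for 36 ribosome biogenesis genes, and 0.09 and 0.08 for 13 genes of RNA polymerase I, which transcribes the rRNA precursor. They were -0.08 and -0.21 for a list of 15 genes that holds regulators of TOP mRNA translation such as Mtor and Larp1. That list also holds Myc, Mycn, Mdm2 and Mdm4. Single genes differed more, and of the 36 biogenesis genes 20 were lower and 16 higher at 11w in Tyk2-/-. The ratio was below 0.5 for 6 of the 36 (16.7%), against 3.69% of all genes. The lowest was Rrp1, which acts in rRNA processing, at 59.4 at 11w and 273 at 6w in Tyk2-/- β-cells, and 68.1 at 11w and 85.1 at 6w in Tyk2+/+ β-cells. The 8 elongation genes had medians of -0.14 and -0.10 with 0 calls. The 6 genes with a symbol that begins with Rps6k, of which Rps6kb2 is also in the list of 15, had 0.20 and 0.04 with 0 calls. Between the genotypes at 11w, Ltv1, an assembly factor of the small subunit, was called lower, with 87.3 in Tyk2-/- and 674 in Tyk2+/+ β-cells. Larp4, an RNA-binding protein that stabilises mRNAs, was called lower too, with 58.97 in Tyk2-/- and 379 in Tyk2+/+ β-cells. At 6w, Lsg1, a GTPase of late large-subunit assembly, was called higher, with 37.2 in Tyk2-/- and 18.3 in Tyk2+/+ β-cells. Of all genes, 2.86% were called between the genotypes at 11w and 2.36% at 6w.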

How the data were processed

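RNA of β-cells from 4 pools of mice was measured on 1 array each. The authors deposited a table of normalized signal intensity per feature for 65956 features, without replicates. The submitters' notes name Affymetrix Expression Console, with no version; background correction, normalization and genome build are not given in the sources used here. That the scale is linear was inferred from the range of signals.

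GEO's platform annotation gave 1 symbol for 30638 features, several for 2176 and none for 33142. Log2 differences and Z scores were computed with Python 3.11.15, NumPy 2.4.6 and pandas 2.3.3, figures with matplotlib 3.10.9. The methods do not say how the Z score is calculated, and print the ratio limits with the signs reversed; they were read as above 1.5 and below 0.66. The calling was tested on simulated data. Comparisons were 11w against 6w within a genotype and Tyk2-/- against Tyk2+/+ within an age, with no test.

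The members, the gene lists and the rules were chosen with earlier results of these data known. Named genes are those called, at the maximum, among the 5 brightest or 5 dimmest, paralogs with their parents, stalk genes and Rpsa, and up to 4 called genes of each other list; those with a ratio below 0.5, of a fixed share, with several features, or with other values in the text were added after the values were seen. Alternatives were another window or a single SD for the Z score, arrays centred on medians or set on maxima, quantile normalization, a pseudocount of 16, ratio limits of 2 and 0.5 alone, other features per gene, and members at the maximum, dim, of a fixed share, or naming no ribosomal protein left out.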

Additional observations from a re-analysis of the deposited data

Results flagged for a closer look

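For 3 genes, 2 comparisons of the same kind moved in opposite directions, each by over 0.3 on the log2 scale, a limit set after the values were seen. Rpl7l1 had an age difference of 0.70 in Tyk2-/- and -0.57 in Tyk2+/+ β-cells, and a difference of Tyk2-/- against Tyk2+/+ of 0.91 at 11w and -0.36 at 6w. Rpl12 differed between Tyk2-/- and Tyk2+/+ by 0.54 at 11w and -0.35 at 6w, and Rpl38 by 0.76 at 11w and -0.34 at 6w. With 1 array a group, none of these differences between comparisons was tested, and none of the 3 genes was called in any of the 4 comparisons.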

How the results depend on the processing

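The median age difference of the 46 genes on the deposited scale was -0.11 in Tyk2-/- and -0.29 in Tyk2+/+ β-cells. It was -0.22 and -0.44 with arrays centred on their medians, -0.25 and -0.42 without the genes of fixed share, 0.032 and -0.0041 after quantile normalization, which turned the sign in Tyk2-/-, and in Tyk2+/+ -0.18 with arrays set on their highest signal. Genes with both 11w signals below both 6w signals numbered 39 as deposited, 20 with arrays set on their highest signal and 12 after quantile normalization. With arrays set on their highest signal, the 9 genes of fixed share are equal on all arrays and cannot be counted. Genes called with age, 1 in Tyk2-/- and 0 in Tyk2+/+, became 6 and 7 with 1 SD over all features and 6 and 9 by the ratio alone. In Tyk2-/- the count was 0 after quantile normalization, and in Tyk2+/+ it was 1, Rpl12, both with 250 features on each side for the Z score and with arrays centred. The causes were not tested. The other 33 of 40 medians moved by under 0.1 on the log2 scale, the other 45 of 52 counts of calls were within 1.5 times the count as deposited, and both genotype comparisons gave 0 calls under each setting run. No paired analysis was possible because each group has 1 array and the labels give no replicate numbers. Signals at the array maximum, a fixed share of it and features that may lie in copies limit what these values show.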
